A study of Mus musculus with 16 samples.

Results

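The amphiphysin family of the mouse is described here through Bin1, Bin2, Bin3 and Amph, in muscle that has lost most of its Bin1 transcript. Members were the rows of the count table whose Ensembl identifier carries 1 of these 4 symbols in the GENCODE annotation of GRCm38, so no measured value sets which rows belong. All 4 were found among the 29730 genes of the table, and all 4 were among the 14960 genes that passed the filter on low counts. Amphiphysins carry an N-BAR domain, a banana-shaped dimer that binds curved membranes and bends them into tubules. BIN1 is the main family member of skeletal muscle, where it shapes the transverse tubules (T-tubules) that carry the action potential into the fibre, and where it binds dynamin and myotubularin. BIN2 is known from blood cells, BIN3 is made in most tissues and has no SH3 domain, and amphiphysin (AMPH) is abundant at nerve terminals, where it links clathrin coats to dynamin.

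RNA sequencing was done on the tibialis anterior muscle, which lifts the foot, of 16 male C57BL/6N mice at 7 weeks of age, split evenly into 4 groups of 4. Wild-type animals received PBS (WT_PBS) or ASO1 (WT_ASO), and Bin1mck-/- mice likewise received PBS (KO_PBS) or ASO1 (KO_ASO). ASO1 is an antisense oligonucleotide, a short synthetic strand that lowers the transcript it pairs with, and its target in this series is Dnm2, which encodes dynamin 2. The promoter or Cre behind the mck mark, the deleted part of Bin1, the dose and the schedule were not given in the sources used here, and whether cells other than fibres keep an intact Bin1 gene is likewise unknown. These groups permit the question whether a paralogue rises where Bin1 is lost.

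The libraries held 27591900 to 40862854 counts. The 12 fibre markers, among them Ckm and Acta1, were detected in every library, with a summed level of 158498 to 294814 CPM (counts relative to the library size, on the usual per-million scale, after TMM scaling, which sets libraries to a common trimmed mean ratio), so the labelled tissue and its defining markers matched. Dnm2 stood at 56.1 ± 5.51 CPM (SD, n = 4) in WT_PBS, 25.6 ± 2.72 CPM in WT_ASO, 62.8 ± 3.63 CPM in KO_PBS and 24.8 ± 4.48 CPM in KO_ASO. Scaling mattered for small differences, since the median log2 fold change (log2FC) over all genes, KO_PBS against WT_PBS, was -0.01 with TMM and 0.14 with library totals alone, and all changes below are relative to the TMM scale unless said otherwise. With that scaling 59.2% of the differentially expressed genes (DEGs) of this comparison were higher in KO_PBS, and with library totals alone 88.2% were.

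Counts of 4 related genes could be blurred by reads that match more than 1 of them, so the coding sequences were compared. Among the annotated transcripts of the 4 genes, the longest run of identical consecutive bases was 15 between Bin1 and any other member and 17 between any pair. The longest run, in which the shared 17 bases are in capitals, lay in the part of Bin2 and Amph that encodes the N-BAR region, and it is shown because the calls of Bin2 and Amph differ. The Bin2 stretch is the minus strand of chr15:100652413-100652459 and the Amph stretch the plus strand of chr13:19094786-19094832, both in GRCm38 and each within 1 coding exon.

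Bin2: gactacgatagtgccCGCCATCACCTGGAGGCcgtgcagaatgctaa
Amph: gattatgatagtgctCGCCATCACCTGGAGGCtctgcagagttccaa

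Bin3 is the most distant member, and its longest run with Amph within single exons had 11 bases, shown in capitals, at chr14:70134755-70134795 on the plus strand for Bin3 and chr13:19099922-19099962 on the plus strand for Amph.

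Bin3: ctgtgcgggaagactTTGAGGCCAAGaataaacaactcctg
Amph: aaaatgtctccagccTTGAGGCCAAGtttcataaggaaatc

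A read that matches without a mismatch over more than 17 bases therefore belonged to 1 of the 4 genes. Overlap with unrelated genes was a further limit. Bin3 shares exon positions with Ccar2 on the opposite strand, which had a mean of 914 counts, and Bin1 with the antisense transcript A830052D11Rik, which had a mean of 73.2 counts. The sources do not say whether the counting used the strand, so reads of each pair cannot be told apart with certainty.

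Bin1 (ENSMUSG00000024381, chr18:32377230-32435737, plus strand) was the targeted gene and checked the labels. Its level was 475, 554, 487 and 463 CPM in the WT_PBS libraries and 479, 533, 620 and 524 CPM in the WT_ASO libraries. In KO_PBS it was 47.7, 40.8, 43.7 and 47.4 CPM, and in KO_ASO 35.4, 31.9, 42.9 and 31.7 CPM. Every knockout library lay far below every wild-type library, and no library went against its label. The means were 495 ± 40.6 CPM (SD, n = 4) in WT_PBS and 44.9 ± 3.27 CPM in KO_PBS, so 9.08% of the wild-type level remained, with a log2FC of -3.46 (SE 0.12, edgeR quasi-likelihood test, adjusted P = 1.91e-11). Between the ASO1 groups the means were 539 ± 58.8 and 35.5 ± 5.24 CPM, 6.58% remained, and the log2FC was -3.92 (SE 0.12, adjusted P = 3.65e-12). The remaining 910 to 1922 counts per knockout library were well above the counting limit. In whole muscle, reads from cells that may keep the gene, reads from undeleted exons and a lower level per fibre cannot be told apart, nor can fewer cells of a type and less RNA per cell.

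The antisense transcript A830052D11Rik was at 1.95 ± 0.452 CPM in WT_PBS and 2.18 ± 0.427 CPM in KO_PBS (log2FC 0.16, SE 0.20, edgeR adjusted P = 0.669). Reads of this transcript that were counted as Bin1, if any, were not measured.

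Bin2 (ENSMUSG00000098112, chr15:100641077-100669553, minus strand) was barely detected. Its raw counts were 8, 6, 7 and 4 in WT_PBS, 3, 5, 17 and 15 in WT_ASO, 13, 10, 16 and 46 in KO_PBS, and 4, 13, 5 and 6 in KO_ASO. Scaled, these were 0.234, 0.223, 0.182 and 0.1 CPM in WT_PBS, 0.0982, 0.145, 0.516 and 0.417 CPM in WT_ASO, 0.358, 0.283, 0.39 and 1.13 CPM in KO_PBS, and 0.109, 0.415, 0.173 and 0.209 CPM in KO_ASO. The 4 KO_PBS libraries lay above the 4 WT_PBS libraries without overlap, whereas the ASO1 groups overlapped with each other and with both PBS groups. The log2FC between KO_PBS and WT_PBS was 1.57 (SE 0.57, 95% interval 0.37 to 2.77), and it did not pass the test after adjustment (edgeR adjusted P = 0.0801). It leaned on KO_PBS replicate 4, without which it was 0.92 (SE 0.54, adjusted P = 0.311). Over the 4 WT_PBS libraries Bin2 had 25 counts, with an exact 95% Poisson interval, of counting error alone, of 16.2 to 36.9. In KO_PBS it had 85 counts (67.9 to 105), of which replicate 4 held 46. The size of change in Bin2 that could be detected was not tested.

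Markers of macrophages, which derive from blood cells, moved with Bin2 between the PBS groups. The summed level of the 12 macrophage markers was 50.5 to 81.7 CPM in WT_PBS, 53.4 to 116 CPM in WT_ASO, 131 to 408 CPM in KO_PBS and 55.2 to 85.8 CPM in KO_ASO, and no marker was at 0 in any library. All 12 were higher in KO_PBS than in WT_PBS at an edgeR adjusted P value under 0.05, where 7.43% of all genes were. Without KO_PBS replicate 4 it was 7 of 12, where 5.98% of all genes were higher. The count was 10 without KO_PBS replicate 1 (4.49%), 11 with the replicate block (8.72%), 9 by limma-voom (9.57%) and 12 by DESeq2 (8.09%). KO_PBS replicate 4 held the highest level of Bin2, of the macrophage markers and of the 6 neutrophil markers (8.31 CPM). In the other KO_PBS libraries the neutrophil markers summed to 1.25 to 2.21 CPM, which overlapped the 1.11 to 1.78 CPM of WT_PBS. By edgeR 0 of the 3 that could be tested passed between the PBS groups, with 2 at an unadjusted P value under 0.05. DESeq2, which gave an adjusted P value for 5 of the 6, called 2 higher, where 8.09% of all genes were. The median edgeR log2FC of the 3 was 1.57, and 0.32 without KO_PBS replicate 4. The calprotectin subunit gene S100a9 was at 0.0962 ± 0.0876 CPM in WT_PBS and 0.974 ± 1.57 CPM in KO_PBS (log2FC 3.42, SE 1.28, adjusted P = 0.0945). Csf3r, the receptor gene for granulocyte colony-stimulating factor, was at 0.226 ± 0.0303 and 0.680 ± 0.802 CPM (1.57, SE 0.68, adjusted P = 0.144), and the gelatinase gene Mmp9, the largest part of the WT_PBS sum, at 0.921 ± 0.457 and 0.535 ± 0.264 CPM (-0.78, SE 0.40, adjusted P = 0.215). S100a8, the other calprotectin subunit gene, did not pass the filter, at 0.0888 ± 0.0807 and 0.988 ± 0.976 CPM. Among the neutrophil markers Ly6g had a mean of 0 CPM in WT_PBS and KO_PBS, and S100a8 and Retnlg were at 0 in some library. The 8 lymphocyte markers summed to at most 0.838 CPM, and each was at 0 in some library. The part of these cells in the Bin2 values was not tested.

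**Figure D1:**
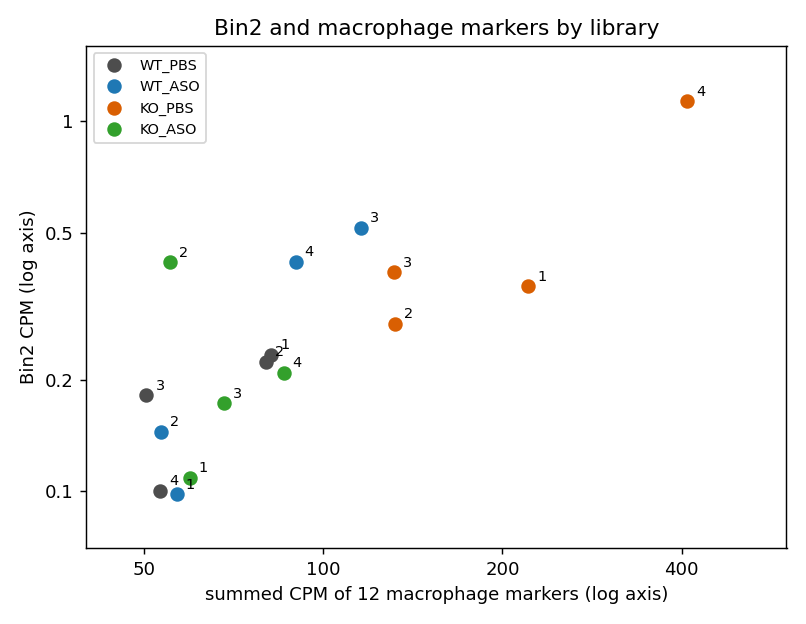
Bin2 level (vertical, CPM, log axis) against the summed level of 12 macrophage markers (horizontal, CPM, log axis) in the 16 libraries, coloured by group and numbered by replicate. KO_PBS replicate 4 stands highest on both axes, at 1.13 and 408 CPM, and KO_ASO replicate 2 has a high Bin2 level, 0.415 CPM, at a low marker sum, 55.2 CPM.

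The plot of Bin2 against the marker sum also shows an exception, KO_ASO replicate 2, in which Bin2 was the highest of its group while the macrophage markers were the lowest of the group. Among the 14960 genes tested, the 4 whose log2 CPM followed Bin2 most closely over the 16 libraries were Adam8 (Pearson's r 0.902), Itgb2 (0.893), Lrrc25 (0.891) and Tkt (0.883). Itgb2 encodes the common beta chain of the leukocyte integrins, and Adam8 a membrane protease of leukocytes. After the group means were taken out, the closest genes were Cadm3 (0.903), Adam8 (0.890), Itgb2 (0.878) and Negr1 (0.875). These coefficients are the highest of many and are given as a description only.

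Bin3 (ENSMUSG00000022089, chr14:70100105-70138206, plus strand) was the steadiest member. Its level was 7.02, 5.59, 6.12 and 5.94 CPM in WT_PBS and 7.17, 5.06, 6.56 and 7.48 CPM in WT_ASO. In KO_PBS it was 5.43, 6.63, 6 and 6.61 CPM, and in KO_ASO 6.57, 5.66, 5.61 and 5.4 CPM. All 4 groups overlapped, with means of 6.17 ± 0.610, 6.57 ± 1.07, 6.17 ± 0.571 and 5.81 ± 0.520 CPM (SD, n = 4). KO_PBS reached 0.999 times the level of WT_PBS, with a 95% interval of 0.828 to 1.21 (edgeR adjusted P = 0.998), and KO_ASO 0.886 times that of WT_ASO, with an interval of 0.733 to 1.07 (adjusted P = 0.537). The sign of such a small difference rests on the scaling, and with library totals alone the log2FC of KO_PBS against WT_PBS was 0.15 (adjusted P = 0.532). Ccar2 on the other strand was at 28.1 ± 1.48 CPM in WT_PBS and 24.7 ± 1.22 CPM in KO_PBS (log2FC -0.18, SE 0.08, adjusted P = 0.127), and its part in the Bin3 counts was not tested.

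Genes with the pattern most like that of Bin3 were Dhrs13 (Pearson's r 0.801 over 16 libraries), Cntrl (0.777), Frg1 (0.764) and Gm31583 (0.757). With the group means taken out, Gm31583 (0.867), Nxpe2 (0.83), Gpr137b (0.827) and Gm30238 (0.813) came first.

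Amph (ENSMUSG00000021314, chr13:18948205-19150921, plus strand) was low throughout and was lower in the PBS knockout. Its level was 1.64, 1.45, 1.45 and 1.35 CPM in WT_PBS, from 39 to 56 counts, and 1.34, 0.752, 1 and 1.36 CPM in WT_ASO, from 26 to 49 counts. In KO_PBS it was 0.8, 0.68, 1.1 and 0.468 CPM, from 19 to 45 counts, and in KO_ASO 0.923, 0.703, 1.07 and 1.01 CPM, from 22 to 34 counts. All KO_PBS libraries lay below all WT_PBS libraries, the KO_ASO libraries lay below WT_PBS as well, and the WT_ASO libraries spread over the range between. The mean fell from 1.47 ± 0.119 to 0.761 ± 0.262 CPM (SD, n = 4). The log2FC was -0.95 (SE 0.25, edgeR adjusted P = 0.0225), or 0.518 times the wild-type level with a 95% interval of 0.357 to 0.752.

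This call was close to the threshold. It was lost with library totals alone (log2FC -0.80, adjusted P = 0.0536), and without WT_PBS replicate 1 (-0.90, 0.0521), KO_PBS replicate 1 (-0.96, 0.0574), KO_PBS replicate 2 (-0.89, 0.0581) or KO_PBS replicate 4 (-0.76, 0.0631), with the same direction each time. It was kept by DESeq2 (-0.95, adjusted P = 0.00566) and by limma-voom (-0.91, adjusted P = 0.00987). KO_PBS replicate 4, in which Amph was lowest, was also the library with the most macrophage and neutrophil marker reads.

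Between the ASO1 groups Amph did not pass the test (1.11 ± 0.293 CPM in WT_ASO and 0.927 ± 0.162 CPM in KO_ASO, log2FC -0.27, SE 0.26, edgeR adjusted P = 0.653). Averaged over both treatments, the knockout difference was -0.61 (SE 0.18, adjusted P = 0.0337). That call was lost with library totals alone (adjusted P = 0.0838), without the filter on low counts (adjusted P = 0.0656) and in 8 of 16 fits that left out 1 library. The difference between the 2 genotype effects is the interaction, at 0.68 (SE 0.36, 95% interval -0.08 to 1.45, adjusted P = 0.464), so the effect was not shown to differ between PBS and ASO1.

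Genes whose pattern was most like that of Amph were Syne2 (Pearson's r 0.853 over 16 libraries), Camkv (0.849), Trmt2b (0.846) and Suclg1 (0.846). With the group means taken out, the first 4 were Rerg (0.920), Ica1 (0.899), Papln (0.893) and Pik3r6 (0.883), and Ica1 encodes a BAR domain protein that is itself among the relatives counted below.

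**Figure D2:**
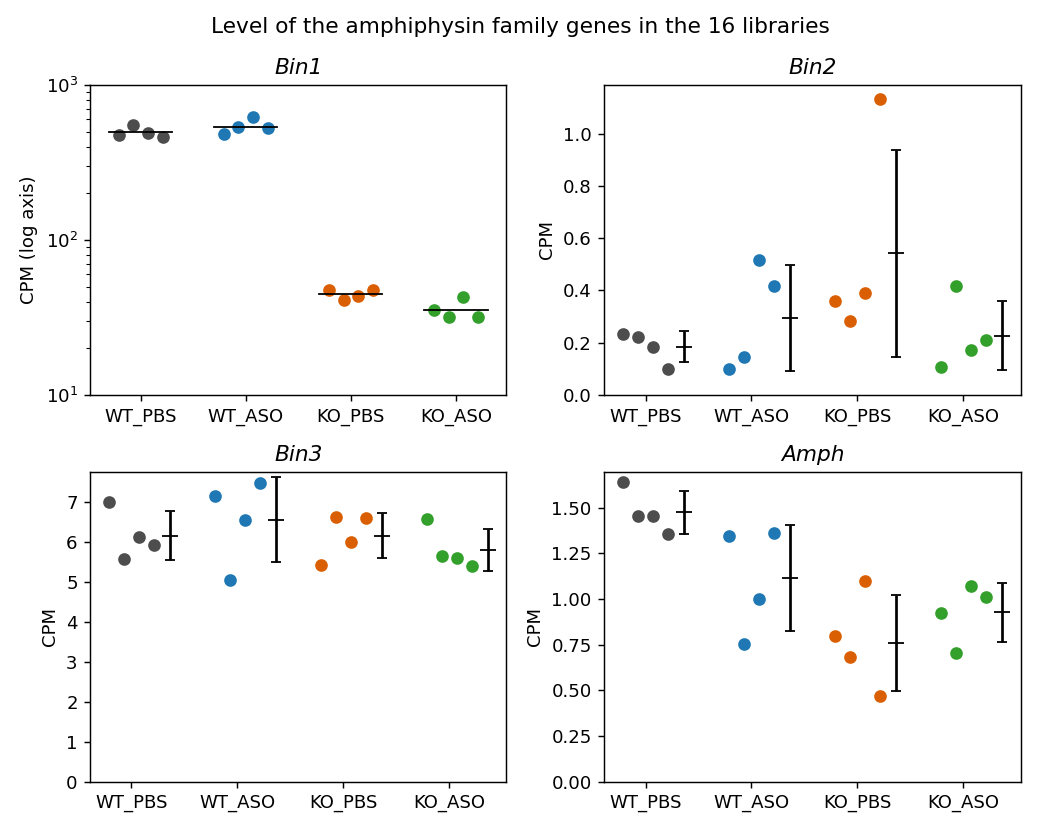
Level of Bin1, Bin2, Bin3 and Amph (CPM, log axis for Bin1 only) in the 4 libraries of each group, replicates 1 to 4 from left to right; bars give the mean ± SD (n = 4), and the line in the Bin1 panel the mean. Bin1 drops from 463 to 554 CPM in WT_PBS to 40.8 to 47.7 CPM in KO_PBS, Bin3 stays between 5.06 and 7.48 CPM, Amph is lower in KO_PBS than in WT_PBS, and the Bin2 mean of KO_PBS is carried by replicate 4.

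Taking the members together, 2 of 4 passed the test between KO_PBS and WT_PBS, both lower, where 12.6% of all genes tested passed it and 5.12% were lower. These were Bin1, the targeted gene, whose fall was set by the design, and Amph, the only paralogue called. No member was higher at that threshold, by edgeR, by DESeq2 or by limma-voom. In 3 of 4 members the groups did not overlap, as was true of 20.4% of all genes. Between KO_ASO and WT_ASO 1 of 4 members passed, Bin1, where 0.0735% of all genes did, and its groups alone did not overlap, as in 6.97% of all genes. Averaged over treatments, Bin1 and Amph passed, 2 of 4, where 14.4% of all genes did. Against WT_PBS, KO_ASO differed in 1 of 4 members, Bin1 (log2FC -3.80, SE 0.12, adjusted P = 5.60e-12), where 0.0401% of all genes passed, and its groups did not overlap in 2 of 4, Bin1 and Amph, beside 5.39% of all genes. Bin1 was the targeted gene in each of these comparisons, so its call does not bear on the paralogues. Among the paralogues only Amph was called, between the PBS groups and averaged over treatments. None was called between KO_ASO and either wild-type group. These comparisons share groups, so their values are not independent of each other. The number of genes called over all genes also moved when 1 library was left out. Between KO_ASO and WT_ASO it was 2 to 19, beside 11 with all libraries, and it moved by over 1.5 times without any single library but WT_ASO replicate 4. Averaged over treatments it was 1348 (without KO_PBS replicate 1) to 2525, beside 2151, and between KO_ASO and WT_PBS 4 to 11 (without KO_ASO replicate 3), beside 6.

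With ASO1 in the knockout no member passed the main test. Between KO_ASO and KO_PBS edgeR called 0 of 4 members, where it called 3.64% of all genes, although 2 of 4 had an unadjusted P value under 0.05. Bin1 was the nearer to the threshold, with a log2FC of -0.34 (SE 0.11, 95% interval -0.57 to -0.11, adjusted P = 0.0937) and groups that overlapped, as those of all 4 members did (10.4% of all genes did not overlap). DESeq2 called it (adjusted P = 0.0447), and so did edgeR with library totals alone (-0.44, adjusted P = 0.0152), while limma-voom called 0 of 4. Bin2 had a log2FC of -1.27 (SE 0.56, adjusted P = 0.241), or -0.62 without KO_PBS replicate 4. Amph had 0.28 (SE 0.26, adjusted P = 0.653), and from 0.0898 (without KO_PBS replicate 4) to 0.515 with 1 library left out. Bin3 had -0.085 (SE 0.13, adjusted P = 0.811).

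Between WT_ASO and WT_PBS edgeR, DESeq2 and limma-voom called 0 of 4 members, 0 of 4 had an unadjusted P value under 0.05, and edgeR called 0.00668% of all genes. The 2 groups overlapped in all 4 members, where 3.22% of all genes did not. The largest difference beyond Bin2 was that of Amph, at -0.40 (SE 0.25, 95% interval -0.93 to 0.12, adjusted P = 0.837). No member passed the interaction test after adjustment, where 0.575% of all genes did, although 2 of 4, Bin1 and Bin2, had an unadjusted P value under 0.05. The interaction was -0.46 for Bin1 (SE 0.15, 95% interval -0.78 to -0.14, edgeR adjusted P = 0.192) and -0.17 for Bin3 (SE 0.18, adjusted P = 0.760). For Bin2 it was -1.96 (SE 0.82, 95% interval -3.70 to -0.22, adjusted P = 0.332), or -1.30 without KO_PBS replicate 4. A response to ASO1 that differs between genotypes was thus not shown for any member. Leaving out 1 library, the genes called in the interaction numbered 23 (without WT_PBS replicate 4) to 102, beside 86, and fell by over 1.5 times without any single library but WT_PBS replicate 3, WT_ASO replicates 2 and 4, KO_PBS replicate 3 and KO_ASO replicate 4. Between WT_ASO and WT_PBS they numbered 4 without WT_PBS replicate 2 and 1 in the other fits.

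**Figure D3:**
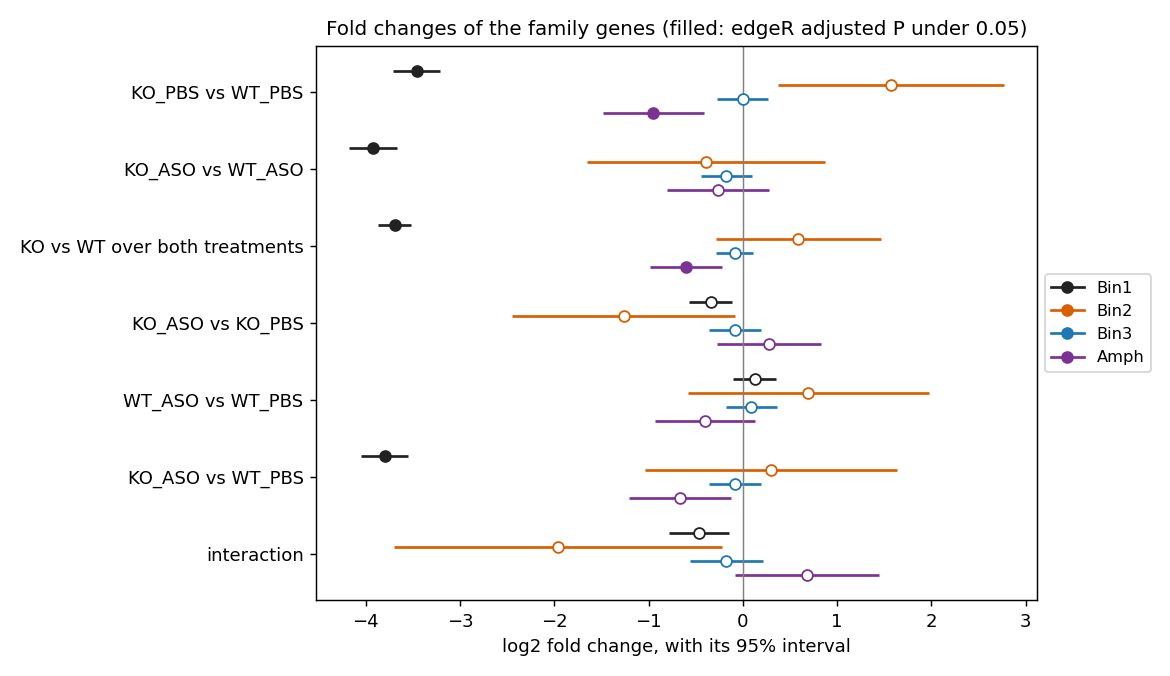
Log2 fold changes of the 4 genes (horizontal) in 6 comparisons and in the interaction, the ASO1 effect in the knockout minus that in the wild type, with 95% intervals from edgeR; filled points have an adjusted P value under 0.05. Bin1 is filled in every comparison of knockout with wild type, Amph in 2 of them, Bin2 and Bin3 in none, and the Bin2 intervals are the widest.

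Levels of different genes can be compared only per length, for which CPM were divided by the merged exon length, 4117 bases for Bin1, 2530 for Bin2, 2187 for Bin3 and 4528 for Amph. In WT_PBS Bin1 stood at 120 ± 9.86 CPM per kb, Bin3 at 2.82 ± 0.279, Amph at 0.326 ± 0.0262 and Bin2 at 0.0731 ± 0.0240 CPM per kb (SD, n = 4), and no neighbours in this order overlapped. In KO_PBS Bin1 was still first at 10.9 ± 0.793 CPM per kb and Bin3 second at 2.82 ± 0.261, whereas Bin2 at 0.214 ± 0.157 and Amph at 0.168 ± 0.0580 CPM per kb overlapped. In WT_ASO and KO_ASO the order was again Bin1, Bin3, Amph and Bin2, with Amph and Bin2 overlapping. The order of these last genes in the ASO1 groups rests on the length used, as the median transcript length is 662 bases for Bin2 and 3082 for Amph.

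The 3 paralogues summed to 3.22 ± 0.311 CPM per kb in WT_PBS, 3.36 ± 0.582 in WT_ASO, 3.20 ± 0.322 in KO_PBS and 2.95 ± 0.208 in KO_ASO, mostly from Bin3. Single libraries ran from 2.96 to 3.66 CPM per kb in WT_PBS and from 2.8 to 3.57 in KO_PBS, so the sums overlapped. The loss of Bin1 between the PBS groups was 109 CPM per kb, and the paralogue sum differed by -0.0169 CPM per kb, where a 34.9-fold rise would have been needed to match the loss in transcript level, or 19.1-fold with the median transcript length. Bin1 made up 97.4 ± 0.375% of the 4 genes' summed level in WT_PBS and 97.5 ± 0.541% in WT_ASO. It was still 77.3 ± 2.34% in KO_PBS and 74.3 ± 2.77% in KO_ASO, or 3.41 and 2.92 times the paralogue sum. The family as a whole was at 11.4% of the wild-type level with PBS and 8.62% with ASO1. These shares depend on the length used, and with the median transcript length Bin1 made up 63.8% in KO_PBS, with a paralogue sum of 12.8 CPM per kb against 12.5 in WT_PBS.

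**Figure D4:**
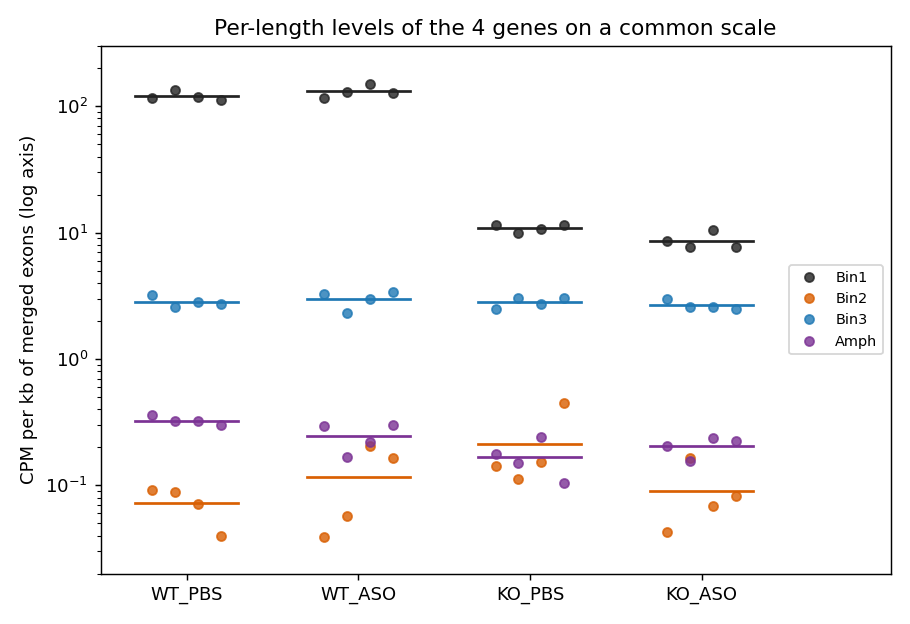
Level per length of the 4 genes (CPM per kb of merged exons, log axis) in each library, with the group mean as a line. Bin1 falls from 120 to 10.9 CPM per kb between WT_PBS and KO_PBS and stays above Bin3, which is at 2.82 CPM per kb in both; Amph and Bin2 lie below 1 CPM per kb throughout.

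Beyond the amphiphysins, other proteins bend membranes with BAR domains, and they were counted in lists chosen for their domain or for known binding to BIN1. The lists were chosen with earlier results of these data known, so their shares beside those of all genes are a description only. Of 34 further genes with a classical BAR domain (endophilins, sorting nexins, RhoGAPs of the RICH and GRAF type and others), 33 were in the table and 30 were tested. Between KO_PBS and WT_PBS 2 of 30 were higher, or 6.67%, where 7.43% of all genes were, and 0 of 30 were lower, with 5 at an unadjusted P value under 0.05. The share of all genes that was higher moved with the setting as well, to 13.0% with library totals alone, 8.72% with the replicate block, 8.09% by DESeq2, 4.49% without KO_PBS replicate 1 and 5.98% without KO_PBS replicate 4. Against these, the list's count higher was 5 of 30 with library totals alone, 4 of 30 with the replicate block, 4 of 33 by DESeq2 and 1 of 30 without KO_PBS replicate 1. The list's median log2FC was 0.05, beside -0.01 over all genes. Arhgap44, which encodes a BAR domain RhoGAP, rose from 8.48 ± 0.974 to 19.5 ± 2.22 CPM (SD, n = 4, log2FC 1.20, SE 0.12, edgeR adjusted P = 1.25e-05), and in KO_ASO it was at 10.1 ± 1.31 CPM, lower than in KO_PBS (log2FC -0.95, SE 0.12, adjusted P = 0.000479). Arhgap42, a GRAF-type RhoGAP, was higher by a log2FC of 0.40 (SE 0.12, adjusted P = 0.0423), a call that was lost without KO_PBS replicate 1 or replicate 2 or replicate 4, among others, and by limma-voom (adjusted P = 0.0536), without the filter on low counts (adjusted P = 0.0925) and with the groups compared alone (adjusted P = 0.0710). The ubiquitous endophilin gene Sh3gl1 had 0.36 (adjusted P = 0.0655), and the neuronal endophilins Sh3gl2 and Sh3gl3 were too low to test, at 0.152 and 0.125 CPM in WT_PBS.

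F-BAR and I-BAR proteins bend membranes more gently or the other way. Of 23 such genes 22 were tested, and between KO_PBS and WT_PBS 4 of 22 were higher, or 18.2%, where 7.43% of all genes were, and 0 lower, with a median log2FC of 0.26 beside -0.01 over all genes. An unadjusted P value under 0.05 was reached by 12 of 22. The count higher was 8 of 22 with library totals alone, where 13.0% of all genes were higher, 2 of 22 without KO_PBS replicate 1, where 4.49% were, and 2 of 23 without KO_PBS replicate 4, where 5.98% were. It was 5 of 22 with the replicate block (8.72% of all genes) and by limma-voom (9.57%), and 4 of 23 by DESeq2 (8.09%). The 4 called higher in the main fit were Srgap3 (1.15 ± 0.117 to 4.21 ± 1.08 CPM, log2FC 1.87, SE 0.24), Gas7 (5.06 ± 1.55 to 10.3 ± 4.00 CPM, 1.03, SE 0.29), Srgap1 (1.03 ± 0.144 to 1.97 ± 0.102 CPM, 0.93, SE 0.19) and Baiap2 (3.10 ± 0.734 to 5.26 ± 0.839 CPM, 0.76, SE 0.22). Srgap1 and Srgap3 encode F-BAR RhoGAPs of the Slit and Robo pathway, and Baiap2 an I-BAR protein that links Rac to actin. Srgap1 and Srgap3 stayed past the threshold without KO_PBS replicate 4 and without KO_PBS replicate 1, whereas Gas7 and Baiap2 did not. With ASO1 in the knockout, Srgap3 (log2FC -1.18, SE 0.23) and Gas7 (-1.19, SE 0.30) were lower, 2 of 22 or 9.09%, where 2.83% of all genes were lower. The Gas7 call was lost in 6 of 16 fits that left out 1 library, without the filter on low counts and with the groups compared alone. The count lower was 1 without KO_PBS replicate 1 (1.22% of all genes) or without KO_PBS replicate 4 (1.73%), and 3 with library totals alone (4.66%) or by limma-voom (5.02%).

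Among 15 genes whose products are known to bind BIN1 or act with it, 3 were higher in KO_PBS than in WT_PBS, or 20%, where 7.43% of all genes were higher, and 0 were lower, where 5.12% were, with a median log2FC of 0.05. An unadjusted P value under 0.05 was reached by 7 of 15. The count higher was 2 of 15 without KO_PBS replicate 1 (4.49% of all genes) or without KO_PBS replicate 4 (5.98%). It was 4 of 15 with library totals alone (13.0%), with the replicate block (8.72%) and by DESeq2 (8.09%). Clip1, named after its values were seen, was called lower by DESeq2, by limma-voom and without KO_PBS replicate 4, beside an edgeR log2FC of -0.54 (SE 0.18, adjusted P = 0.0540) with all libraries. Clip1 encodes a protein of growing microtubule ends. With the replicate block the gene called lower was Itsn1, an endocytic scaffold also named after its values were seen, at -0.29 (SE 0.12, adjusted P = 0.133) without the block. Cavin4, which encodes a muscle protein of caveolae, rose from 158 ± 26.2 to 271 ± 31.4 CPM (log2FC 0.77, SE 0.14, edgeR adjusted P = 0.00201), and Cav3, the muscle caveolin of developing T-tubules, from 56.5 ± 5.24 to 94.0 ± 21.9 CPM (0.74, SE 0.16, adjusted P = 0.00757). Both were lower again in KO_ASO than in KO_PBS, by -0.64 (SE 0.14) and -0.70 (SE 0.16). The third gene lower there was Dnm2 (-1.34, SE 0.11), the target of ASO1, whose fall was set by the design. With it 3 of 15 were lower, where 2.83% of all genes were. The count was 4 with library totals alone (4.66% of all genes), the replicate block (3.70%), DESeq2 (4.69%) and limma-voom (5.02%), which also called 1 higher (2.93%). Without KO_PBS replicate 1 the count was 1, Dnm2 alone, where 1.22% of all genes were lower, since the calls of Cavin4 (adjusted P = 0.0711) and Cav3 (adjusted P = 0.0852) were lost. The call of Cav3 was also lost without KO_ASO replicate 1, 2 or 3 and with the groups compared alone (adjusted P = 0.0540). Myc, a transcription factor that BIN1 was first found to bind, was at 2.46 ± 1.17 CPM in WT_PBS and 4.96 ± 0.351 CPM in KO_PBS (log2FC 1.0, SE 0.30, adjusted P = 0.0364), a call that was lost without the filter on low counts (adjusted P = 0.0505) and in 7 of 16 fits that left out 1 library, including each that left out a KO_PBS library. Mtm1, the myotubularin gene, had -0.11 (adjusted P = 0.575) and Dnm2 0.16 (SE 0.11, adjusted P = 0.377) between KO_PBS and WT_PBS. Between KO_ASO and WT_ASO edgeR, DESeq2 and limma-voom called 0 genes of any of the 3 lists. Over all genes edgeR called 0.0735% there and limma-voom 2 genes, and by DESeq2 1.16% were higher and 1.68% lower. By edgeR 5, 4 and 1 genes of the 3 lists had an unadjusted P value under 0.05. In the wild type with ASO1 the only gene called in the 3 lists was Dnm2, the target of ASO1 (log2FC -1.13, SE 0.11, edgeR adjusted P = 0.000396).

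**Figure D5:**
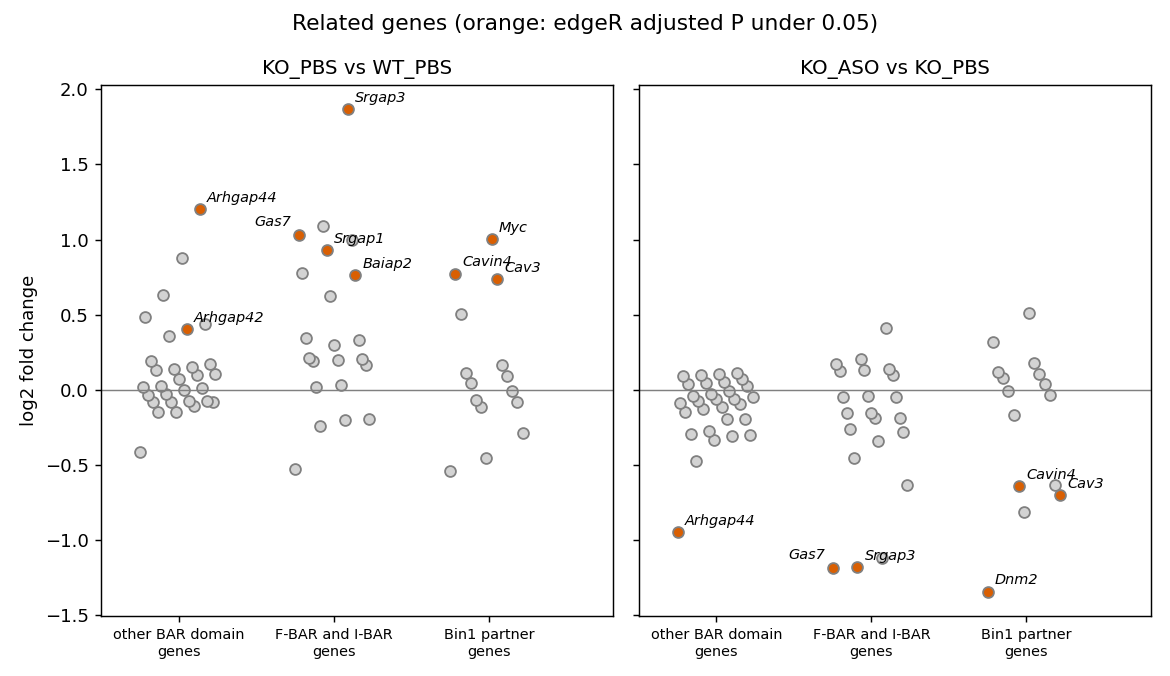
Log2 fold changes (vertical) of the tested genes of 3 lists, 30 other BAR domain genes, 22 F-BAR and I-BAR genes and 15 Bin1 partner genes, between KO_PBS and WT_PBS (left) and between KO_ASO and KO_PBS (right); orange points passed edgeR's test. The 9 orange points on the left are all above 0 and the 6 on the right all below, with Arhgap44, Srgap3, Gas7, Cavin4 and Cav3 in both. Dnm2, orange on the right only, is the target of ASO1.

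Markers of other cell types differed as well between KO_PBS and WT_PBS, and their part in the list values was not tested. Of the marker lists, 2 of 5 fibroblast genes were higher, and 3 of 12 fibre, 1 of 6 endothelial, 3 of 4 satellite cell and 2 of 6 mural cell genes were lower, where 7.43% of all genes were higher and 5.12% lower. With library totals alone, and likewise without KO_PBS replicate 1, 0 fibre and 0 mural cell genes were called and 2 satellite cell genes, where 1.74% and 2.07% of all genes were lower, without KO_PBS replicate 4 the mural cell count was 1, and the fibroblast count was 0 without KO_PBS replicate 1 or replicate 4 and 3 with library totals alone. In that comparison edgeR called 0 of the 1 lymphocyte gene that could be tested, with 0 at an unadjusted P value under 0.05, DESeq2 and limma-voom called 0, and limma-voom called 0 of the neutrophil genes. Between KO_ASO and KO_PBS edgeR called 7 of 12 macrophage markers (median log2FC -1.61) and 1 of 5 fibroblast genes (-0.80) lower, where 2.83% of all genes were. These counts were 3 and 0 without KO_PBS replicate 1 (1.22%) or replicate 4 (1.73%), and 10 and 2 by DESeq2 (4.69%). Fibre, endothelial, satellite cell and mural cell genes were not called there by edgeR. The part of these cells in the list values was not tested.

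The genes around Bin1 were read as a check on the locus. Of 19 genes of the table within 500 kb of Bin1, 11 were tested, and 1 passed the test between KO_PBS and WT_PBS, where 12.6% of all genes did. This was Gm44577, which lies 26.8 kb from Bin1 and rose from 0.199 CPM in WT_PBS to 7.83 CPM in KO_PBS (log2FC 5.30, SE 0.21), with 0.345 CPM in WT_ASO and 7.89 CPM in KO_ASO. The next nearest to the threshold was Gypc, a glycophorin gene, at -0.43 (SE 0.14, edgeR adjusted P = 0.0505).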

How the data were processed

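Raw counts of reads per gene, as deposited by the authors, were used; they carry no normalization. Libraries came from a stranded mRNA kit per the labels, and GRCm38 (mm10), STAR 2.5.3a, HTSeq 0.6.1p1, Bowtie2 2.2.8 and cutadapt 1.10 are listed in the submitters' processing notes. Their roles, the read length, the strand setting and the annotation release were not given in the sources used here. All 29730 identifiers matched GENCODE.

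Counts were fitted with edgeR 4.0.16 (R 4.3.3): filterByExpr by group (14960 genes kept, 14770 removed), TMM, a robust quasi-likelihood fit over all 16 libraries with the 4 groups as terms, and Benjamini-Hochberg adjustment over all genes tested within a comparison, called under 0.05. The biological coefficient of variation was 18.7%. The script was tested on simulated data. Alternatives were DESeq2 1.42.0, limma-voom (limma 3.58.1), other scalings, no filter, a replicate block, the groups compared alone and leaving out each library. P values measure the spread between libraries, taken as 1 mouse each. Replicates differed by a mean chi-square per gene of at least 22.2, so none looked like 1 library deposited again.

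The members, by gene symbol, and the gene lists were chosen with earlier results of these data known. Genes were named by rule: the members, called genes of the 3 lists, genes near Bin1, and the 4 genes most correlated with a member. The genes near the threshold (Sh3gl1, Gypc), the untested endophilins, Mtm1, Clip1, Itsn1, the neutrophil genes and the overlapping genes were named after their values were seen. For Bin1 the correlated genes are not given, since its libraries form separate clusters by genotype. Of the cell type marker lists, a further list, beside those named in the results, is not reported here. Intervals on counts cover counting error only. Sequences were read from the GRCm38 transcript and gene annotation.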

Additional observations from a re-analysis of the deposited data

Results flagged for a closer look

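In 4 of 52 groups of 4 libraries, 1 library stood apart from the other 3 by more than Dixon's 95% critical value, where chance alone gives about 1 in 20. For Bin2 this was KO_PBS replicate 4, at 1.13 CPM against 0.283 to 0.39 CPM in the other KO_PBS libraries. The same library stood apart in the summed neutrophil markers, at 8.31 CPM against 1.25 to 2.21 CPM. In WT_ASO, replicate 3 stood apart in the summed neutrophil markers, at 3.10 CPM against 0.425 to 0.665 CPM, and in the summed satellite cell markers, at 37.6 CPM, and it had the highest Bin2 level of its group, 0.516 CPM. The part of these cells in the member values was not tested.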

How the results depend on the processing

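The Bin1 difference between knockout and wild type kept its direction and its call under every alternative run, and no alternative called Bin2 or Bin3. Bin3 between KO_PBS and WT_PBS (-0.00) changed sign with library totals alone (0.15), the replicate block (0.00723), the groups compared alone (0.00345) and limma-voom (0.0171), and averaged over treatments with library totals alone (0.0332). The Amph call was lost with library totals alone (-0.80 between KO_PBS and WT_PBS, -0.49 averaged) and, averaged, without the filter (-0.61). Bin1 between KO_ASO and KO_PBS was called with library totals alone (-0.44) and by DESeq2 (-0.34). Leaving out 1 library at a time, Amph ranged from -1.19 to -0.76 between KO_PBS and WT_PBS (12 of 16 fits kept the call) and from -0.72 to -0.51 averaged (8 of 16 fits; lost without WT_PBS replicates 1 or 2, WT_ASO 1 or 4, KO_PBS 1, 2 or 4, or KO_ASO 2). Bin1 between KO_ASO and KO_PBS ranged from -0.45 to -0.29 and was called without KO_ASO replicate 3 only. Bin3 between KO_PBS and WT_PBS ranged from -0.0454 to 0.0652. Bin2 ranged from -0.86 to 0.00569 between KO_ASO and WT_ASO (sign turned without WT_ASO replicate 3), and from -0.18 to 0.55 between KO_ASO and WT_PBS (sign turned without KO_ASO replicate 2). With the median transcript length, Bin1's share was 95.2% in WT_PBS, 95.3% in WT_ASO, 63.8% in KO_PBS and 60.2% in KO_ASO, and the paralogue sums were 12.5, 13.3, 12.8 and 11.7 CPM per kb.

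Among the named relatives between KO_PBS and WT_PBS, Arhgap42 kept its call in 7 of 16 fits (0.35 to 0.52; lost without WT_PBS replicates 1, 2 or 3, KO_PBS 1, 2 or 4, or KO_ASO 1, 2 or 3), Myc in 9 (0.77 to 1.35; lost without WT_PBS 1, 2 or 3 or any KO_PBS library), Gas7 in 11 (0.76 to 1.27; WT_PBS 2, 3 or 4, KO_PBS 1 or 4) and Baiap2 in 11 (0.63 to 0.91; WT_PBS 1, 2 or 4, KO_PBS 1 or 4). Between KO_ASO and KO_PBS, Gas7 kept it in 10 (-1.35 to -0.92; WT_PBS 2, KO_PBS 1 or 4, KO_ASO 1, 2 or 3), Cav3 in 12 (-0.79 to -0.54; KO_PBS 1, KO_ASO 1, 2 or 3) and Cavin4 in 15 (-0.69 to -0.53; KO_PBS 1). Without the filter Myc, Gas7 and Arhgap42 lost the call, by limma-voom Arhgap42, and with the groups compared alone Arhgap42 and, between KO_ASO and KO_PBS, Gas7 and Cav3. Genes called between KO_ASO and WT_ASO numbered 11 as reported, 402 by DESeq2, 2 by limma-voom, 6 with DESeq2's size factors, 2 with the groups compared alone and 44 with the replicate block, and between KO_ASO and KO_PBS 544, with 1045 by DESeq2, 1190 by limma-voom and 300 with the groups compared alone. DESeq2 called 35 genes, against 1, between WT_ASO and WT_PBS (3 without the filter, 2 with the block), 87, against 6, between KO_ASO and WT_PBS, and 371, against 86, in the interaction. Leaving out 1 library, the count between KO_PBS and WT_PBS ran from 997 (without KO_PBS replicate 1; 1080 without WT_PBS 4) to 2137, beside 1878, and that between KO_ASO and KO_PBS from 208 (without KO_PBS 1; 212 to 328 without KO_PBS 4 or KO_ASO 1, 2 or 3) to 831 (without KO_ASO 4), beside 544. Causes were not tested. DESeq2 gave no adjusted P value for Bin2 between KO_ASO and WT_ASO.

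The labels do not say that replicate numbers mark shared animals or batches, so libraries were treated as unpaired. Deviations of the 24 pairs with the same number correlated with r from -0.0777 to 0.435 (median 0.0751), 18 above 0 and 11 above 0.1, and in 0 of 6 pairs of groups were all above 0.1. The 72 pairs with different numbers ran from -0.382 to 0.195 (median -0.0268), and a library correlated best with its own number in 29 of 48 cases. Each case had 4 libraries to choose from, so this was more often than an even draw would give. The source of this likeness was not tested. With the replicate block Amph between KO_PBS and WT_PBS was -0.96 (adjusted P = 0.0180) and Bin2 1.45 (adjusted P = 0.104), and apart from Bin3's sign no member's call or direction changed.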
